A study of Gallus gallus with 8 samples.

Results

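Ubiquitin is a small protein that is joined to other proteins in a relay of an activating enzyme (E1), a conjugating enzyme (E2) and a ligase (E3) that picks the substrate. Chains of it mark a protein for the proteasome, a barrel-shaped protease with a cap that binds, unfolds and feeds in the substrate, and ubiquitin-specific proteases (USP) take the chains off again. Lymphocytes also use ubiquitin as a signal, in antigen-receptor and NF-kB signalling and in the repair of damaged DNA, and rely on the same machinery to clear misfolded proteins from the endoplasmic reticulum. The genes described here are those on a chicken expression array whose RefSeq symbol starts with PSMA, PSMB, PSMC, PSMD, PSME, UBE2, UBA or USP with a digit, FBXO, FBXW, FBXL or KLHL. They were 76 of the 5005 genes for which a probe accession matched a RefSeq symbol. The rule also took in CUL with a digit, the scaffolds of the cullin ligases, but 0 such symbols matched.

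RNA was read in DT40, an established line of chicken B cells from a lymphoma of the bursa, in which genes can readily be disrupted by targeting. There were 3 arrays labelled DKO, from DT40 cells labelled as lacking both IRF4 and BCL6, 2 arrays labelled BCL6KO, from DT40 cells labelled BCL6-deficient, and 3 arrays of wild-type DT40 cells (WT). IRF4 encodes a transcription factor required for plasma cell differentiation, and BCL6 is a repressor of germinal centre B cells. The extraction protocol names cultures of WT and IRF4KO cells only, so whether the DKO and BCL6KO arrays came from separate cultures or clones is not known, and p-values measure the spread between these samples, which may be technical.

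IRF4 read -1.77 to -1.65 on the DKO arrays, 4.81 and 5.41 on the BCL6KO arrays and 2.93 to 3.18 on the WT arrays, each level below being the log2 processed signal of a probe, less that of its array's 75th percentile. BCL6 read 0.68 to 0.95 in DKO, -4.47 and -4.95 in BCL6KO and 2.54 or above on each WT array. The BCL6 signal of the DKO-labelled arrays was thus 46.3-fold higher than that of BCL6KO and 3.37-fold lower than that of WT, and whether its probe lies in the deleted stretch was not checked. In the authors' deposited value table, the 3 columns labelled WT followed the scanner arrays labelled DKO, each at r = 0.999 across probes. The 3 columns labelled DKO followed the WT scanner arrays most closely, at r = 0.898 to 0.971, and only the BCL6KO columns followed their own arrays. The deposited files thus disagree on which arrays are DKO and which are WT. Groups here are those of the scanner files, on which IRF4 was 26.6-fold lower in DKO than in WT, and with these labels exchanged every sign of DKO against WT below would turn round. The comparisons of BCL6KO with WT and with DKO would then trade places. DKO and WT below mean the scanner arrays labelled so. Between 65.8% and 67.8% of the 43803 spots were well above background in DKO, 75.1% to 79.2% in BCL6KO and 62.4% to 68.2% in WT. The BCL6KO arrays were scanned in a session of their own, so that genotype and scan session cannot be told apart in comparisons with BCL6KO. The summed level of 11 B cell markers on the array, in units of the 75th percentile of each array, was 89.7 to 105 in DKO, 32.9 and 52.7 in BCL6KO and 148 to 163 in WT. PAX5 was not well above background on either BCL6KO array, and EBF1, CD40 and CD72 were not on one of them. The sum of 13 mesenchymal markers was 2.67 to 3.05 in DKO, 5.98 and 7.76 in BCL6KO and 0.544 to 0.574 in WT, with 5 to 8 of them well above background on a DKO array, 12 on each BCL6KO array and 3 to 5 on a WT array. The sum of 6 T cell markers was 12.5 to 16.1 in DKO, 1.68 and 3.08 in BCL6KO and 68.4 to 71.0 in WT, with CD4 not well above background on any array. For 6 macrophage markers, among which CD14 was not well above background on any array, the sums were 1.77 to 1.81 in DKO, 0.229 and 1.21 in BCL6KO and 0.873 to 0.888 in WT. For 5 erythroid genes, of which HBE1 was not well above background on any array, they were 1.37 to 1.47 in DKO, 0.194 and 0.229 in BCL6KO and 0.111 to 0.127 in WT. The part of these shifts in the results below was not tested, and in bulk RNA fewer cells of a type and less RNA per cell cannot be told apart.

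All 76 genes were measured: 74 were well above background on all 8 arrays, and only KLHL31 and KLHL4 were not. By role they were 8 proteasome core subunits, 12 genes of the regulatory particle or its assembly, 2 proteasome activators, 3 UBA genes, 16 UBE2 genes, 15 USP genes, 11 F-box genes and 9 KLHL genes. Replicates agreed closely for DKO and WT, with a median SD of 0.05 log2 units in each, while the BCL6KO pair had a median SD of 0.20.

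**Figure D1:**
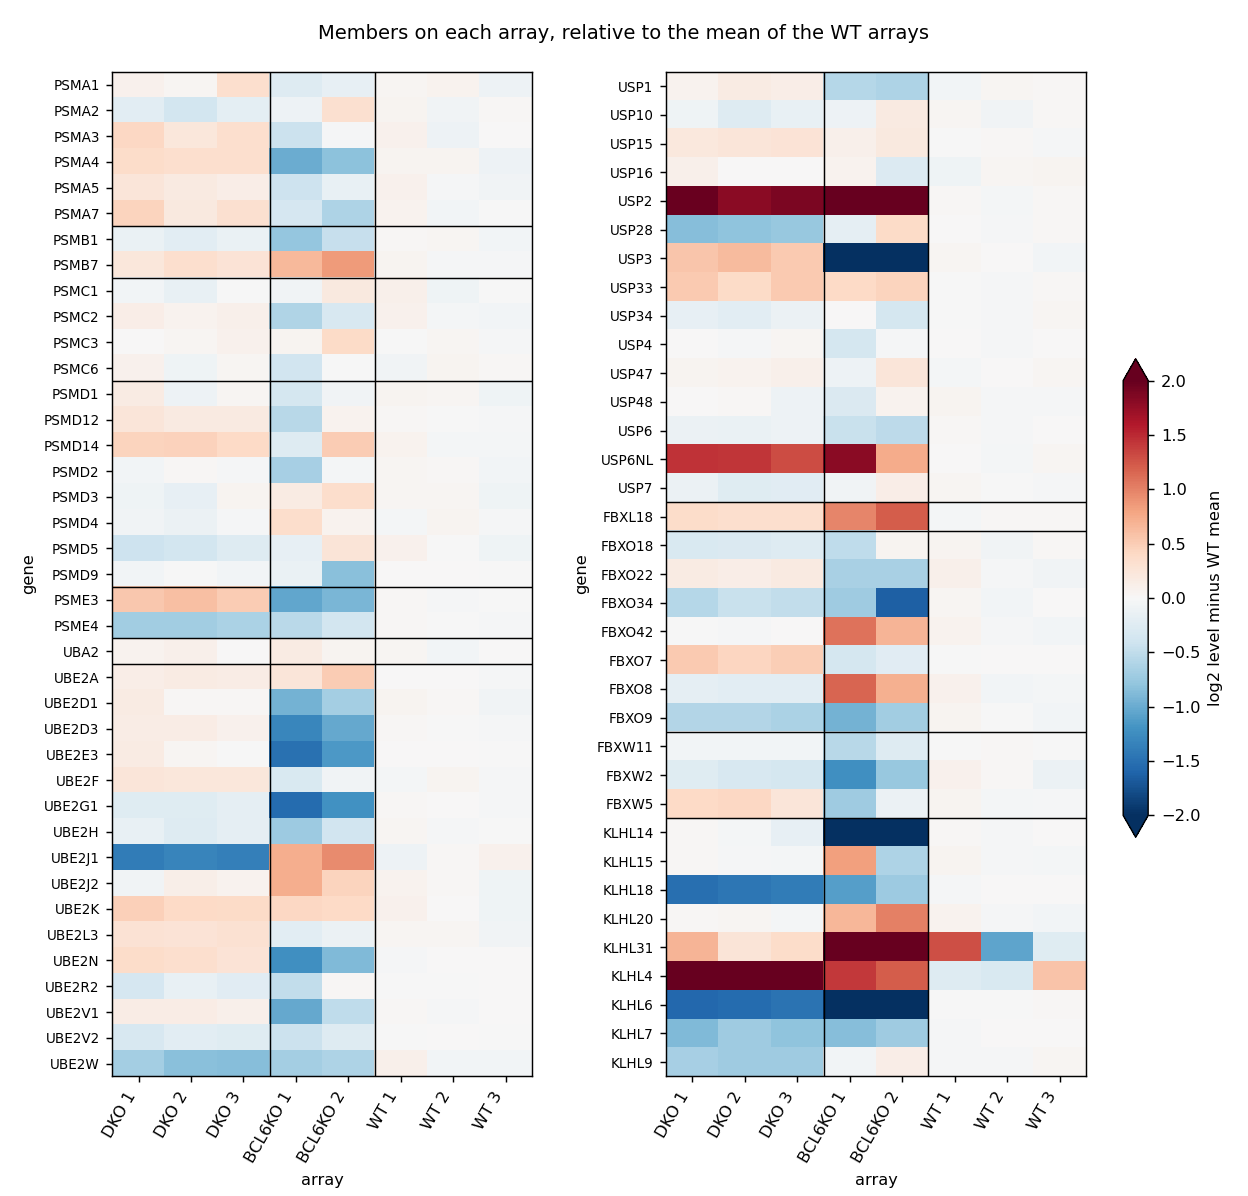
Each column is an array and each row a gene, grouped by family. Colour is the log2 level minus the mean of the 3 WT arrays, with red above and blue below that mean and the scale ending at 2 in each direction. KLHL31, KLHL14, KLHL6, KLHL4, USP2 and USP3 reach the end of the scale, and most PSM rows stay pale.

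In BCL6KO against WT, 46 of the 76 genes differed at an adjusted p under 0.05 in a limma model fitted to all genes, 17 of them higher and 29 lower, which is 60.5%. The background was 69.7%, the share called among all 24137 genes tested, with 42.1% called higher and 27.5% lower, and it was 72.2% among genes with a symbol. The median absolute log2 change was 0.46, against 0.73 over all genes and 0.66 among genes with a symbol. Of the 76 genes, 14 were both called and changed at least 2-fold, against a background of 35.9%. The arrays of the groups did not overlap for 56 genes (background 79.3%). On another scale, with each array's median in place of its 75th percentile, 12 genes were called higher and 48 lower. There 16688 of the 24137 genes were called, so the share of the 76 lay above the background on that scale. The median log2 change of all genes was -0.06 on that scale and 0.25 on the 75th percentile scale. On the 75th percentile scale it was 0.06 among genes with a symbol and -0.20 among the 76 genes. Relative to all genes the median of the 76 genes was -0.45, which a change between these scales cannot alter, since it shifts all genes alike. That relative median was -0.23 with quantile normalization and -0.21 with the normexp background correction. These gave 50 and 52 calls, with 15908 and 15898 of all genes called.

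DKO against WT gave 27 calls, 16 higher and 11 lower, which is 35.5% against a background of 52.3% (28.4% higher and 23.9% lower, and 55.8% among genes with a symbol). The median absolute log2 change was 0.20, against 0.41 over all genes and 0.39 among genes with a symbol, and 6 genes were called and changed at least 2-fold (background 21.3%). There was no overlap between the groups for 53 genes (background 69.9%). Scaling by the median gave 10 higher and 23 lower, quantile normalization 15 higher and 18 lower, and the normexp background correction 18 higher and 20 lower, so which direction leads depends on the scaling. Over all genes these called 12908, 12718 and 12848, in that order. Fitting DKO and WT alone gave 48 calls, 25 higher and 23 lower, with 15298 of the 24137 genes tested called. The share called among the genes described here was then close to that of all genes. The shortfall against the background in the main fit was thus not seen in this fit, and it depends on how the spread is estimated. Of the slides, 2 held an array of each group, and all 27 called genes had the same direction on both. The DKO and WT arrays did not overlap for these genes, so that direction had to follow and is no separate check. With slide as a fixed block there were 21 calls, 11 higher and 10 lower, with 11151 of all genes called.

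DKO against BCL6KO gave 50 calls, 30 higher and 20 lower (65.8%, background 68.5%, with 28.7% higher and 39.8% lower, and 69.3% among genes with a symbol). Of these, 15 also changed at least 2-fold (background 34%), and the groups did not overlap for 56 genes (background 78.1%). The split was 39 higher and 14 lower after scaling by the median, where 16390 of all genes were called. The 3 comparisons share arrays, so their counts are not independent of each other. In all, 59 genes were called in at least 1 comparison, 14 in all 3 and 17 in none. The same counts over all genes tested were not made, so these have no background and are not read as high or low.

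**Figure D2:**
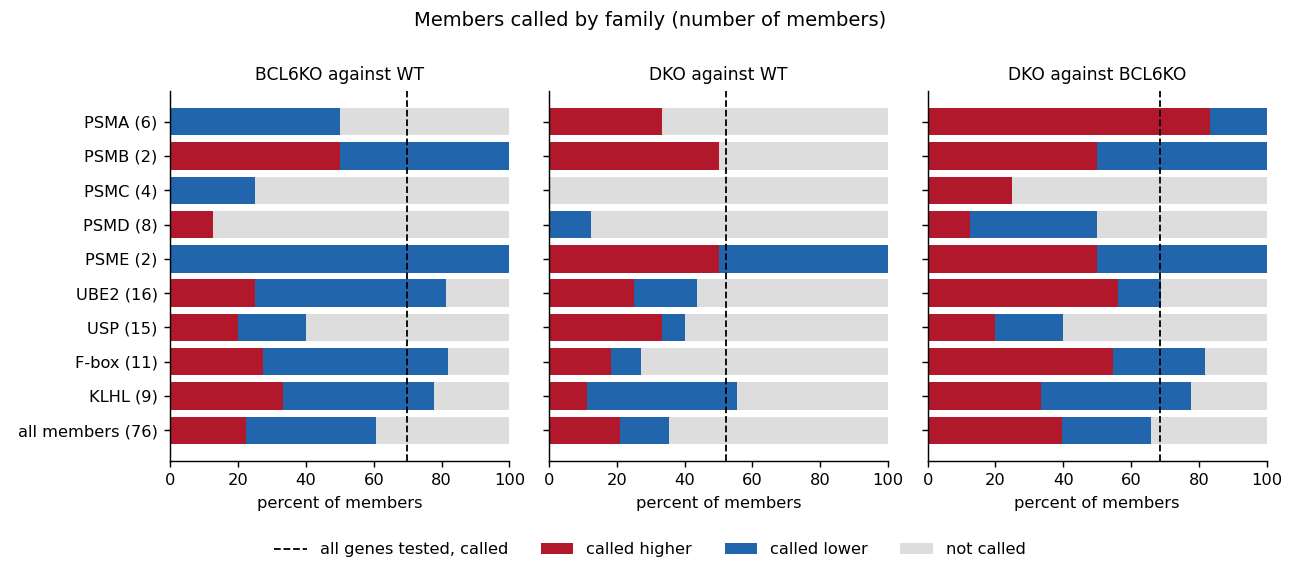
Bars give the percent of each family called higher (red), called lower (blue) and not called (grey), with the number of genes in brackets. The dashed line is the percent of all genes tested that were called, 69.7, 52.3 and 68.5. Of the families drawn, PSMC, PSMD and USP lie left of it in all 3 comparisons, as do all members together.

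The proteasome core is a stack of rings, the outer ones of alpha subunits (PSMA), which gate the entrance, and the inner ones of beta subunits (PSMB), some of which cut. Over all 22 PSM genes, 2 were higher and 7 lower in BCL6KO than in WT, 4 higher and 2 lower in DKO than in WT, and 9 higher and 6 lower in DKO than in BCL6KO. Scaling by the median gave 1 higher and 14 lower in BCL6KO than in WT, 2 higher and 4 lower in DKO than in WT, and 13 higher and 1 lower in DKO than in BCL6KO. The shares called on the 75th percentile scale were 40.9%, 27.3% and 68.2%, beside backgrounds of 69.7%, 52.3% and 68.5%. No PSM gene changed 2-fold against WT. In BCL6KO against WT, PSMA4 (-0.90), PSMB1 (-0.62), PSMA7 (-0.48) and PSMA5 (-0.28, adjusted p = 0.0437) were lower, the PSMA5 call being kept in 8 of 20 alternatives. PSMB7, which encodes a cutting subunit of trypsin-like specificity, was higher by 0.76 ± 0.08 log2 units (SE, adjusted p = 0.000224). By chosen probe, PSMA1, PSMA2 and PSMA3 were not called, with changes of -0.21, 0.10 and -0.23, though 1 of 2 probes of PSMA3 was called lower. In DKO against WT, PSMA4 (0.35), PSMA7 (0.32) and PSMB7 (0.28) were higher and 5 core genes were not called by chosen probe. Among these 5, PSMA2 had 2 of 5 probes called lower, and PSMA3 and PSMA5 each had 1 of 2 called higher. The PSMA7 call was lost when any 1 array other than DKO 2 or a BCL6KO array was left out, and the PSMB7 call when DKO 2, DKO 3, WT 2 or WT 3 was. Both were lost on the median scale. None of the calls of PSMA4, PSMA7 and PSMB7 was kept in a fit with slide as a fixed block.

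PSMA4 shows the pattern on single arrays. Its log2 level was 4.16, 4.14 and 4.14 in DKO, 2.82 and 2.98 in BCL6KO and 3.85, 3.85 and 3.70 in WT. The DKO arrays were highest, the BCL6KO arrays lowest and no groups overlapped. PSMA4 was 2.38-fold higher in DKO than in BCL6KO (log2 1.25 ± 0.08 SE, adjusted p = 2.23e-05), and its 2 other probes gave 1.21 and 1.26. For PSMB7 the levels were 4.48, 4.59 and 4.53 in DKO, 4.90 and 5.11 in BCL6KO and 4.30, 4.22 and 4.23 in WT, so here the BCL6KO arrays were highest, again without overlap. All 8 core genes were called in DKO against BCL6KO. PSMA1, PSMA3, PSMA4, PSMA5, PSMA7 and PSMB1 were higher in DKO, by 0.36 to 1.25, and PSMA2 (-0.36) and PSMB7 (-0.47) were lower, the PSMA2 call being kept in 6 of 20 alternatives.

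The regulatory particle caps the core. Its PSMC genes encode the ring of ATPases that unfolds the substrate, and its PSMD genes encode the remaining subunits and, with PSMD5 and PSMD9, assembly chaperones. Of these 12 genes, 2 were called in BCL6KO against WT (16.7%, background 69.7%), 1 in DKO against WT (8.33%, background 52.3%) and 5 in DKO against BCL6KO (41.7%, background 68.5%). The split was 1 higher and 1 lower in BCL6KO against WT, but 0 higher and 6 lower on the median scale. The BCL6KO arrays differed: the median of the 12 genes, relative to the WT mean, was -0.21 on the first and 0.06 on the second. In DKO against BCL6KO the split was 2 higher and 3 lower, but 6 higher and 0 lower on the median scale. Among the ATPase genes only PSMC2 was called. It read 5.81 to 5.87 in DKO, 5.14 and 5.42 in BCL6KO and 5.69 to 5.83 in WT, which is 0.46 lower in BCL6KO than in WT (adjusted p = 0.00579) and 0.56 higher in DKO than in BCL6KO. PSMC1, PSMC3 and PSMC6 were called in no comparison, and their changes lay between -0.19 and 0.23. In DKO against WT the 95% intervals of the 4 PSMC genes together ran from -0.30 to 0.31.

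Among the PSMD genes, PSMD3 was called 0.26 higher in BCL6KO than in WT (adjusted p = 0.0496). That direction does not hold: it was -0.046, -0.10 and -0.12 after median scaling, quantile normalization and normexp, and another of its 4 probes was called lower, by 0.21. PSMD5 was 0.35 lower in DKO than in WT (adjusted p = 0.0453) and 0.39 lower in DKO than in BCL6KO. The first of these calls was kept in 10 of 21 alternatives, being lost without any 1 DKO or WT array, and the second in 9 of 20. DKO against BCL6KO also gave lower PSMD3 (-0.32) and PSMD4 (-0.28), a ubiquitin receptor of the cap, and higher PSMD12 (0.45, adjusted p = 0.0498). Of 20 alternatives, 8 kept the PSMD3 call, 5 the PSMD4 call and 8 the PSMD12 call, and PSMD3, PSMD4 and PSMD5 were not called there on the median scale. By chosen probe, PSMD1 and PSMD2, the scaffolds of the cap base, PSMD9, and PSMD14, the deubiquitinase of the particle, were called in no comparison. Of the 5 probes of PSMD2, however, 4 were called lower in BCL6KO against WT and 3 in DKO against WT. Of the 3 probes of PSMD1, 2 were called lower in each of these comparisons. For PSMD9, 1 of 2 probes was called lower in BCL6KO against WT. With the mean of all probes, PSMD1 and PSMD2 were called lower in both BCL6KO and DKO against WT. PSMD14 read 3.51 to 3.57 in DKO and 3.08 to 3.18 in WT, a change of 0.44. Its lack of a call there was kept in 13 of 21 alternatives, and it was called higher with only DKO and WT in the fit. PSMD14 and PSMD2 were also among the genes on which the BCL6KO arrays disagreed, by 0.76 and 0.62.

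Both activator genes were called in every comparison. PSME3 encodes the gamma subunit of the proteasome activator PA28, a nuclear ring that opens the core without ubiquitin. Its levels were 4.38, 4.44 and 4.35 in DKO, 2.80 and 2.92 in BCL6KO and 3.86, 3.82 and 3.84 in WT. The 3 groups were separate, with DKO highest and BCL6KO lowest. PSME3 was 1.46-fold higher in DKO than in WT (adjusted p = 0.000313), 1.97-fold lower in BCL6KO than in WT (adjusted p = 2.54e-05) and 2.89-fold higher in DKO than in BCL6KO. Its 3 other probes were called in the same directions, by -0.24 to -0.85 in BCL6KO against WT. PSME4, which encodes the activator PA200, was lower in both lines than in WT, by 0.68 in DKO (adjusted p = 0.000187) and 0.45 in BCL6KO (adjusted p = 0.00165). Its call in DKO against BCL6KO (-0.22, adjusted p = 0.0363) was lost in 17 of the 20 alternatives run, with adjusted p from 0.0038 to 1.

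**Figure D3:**
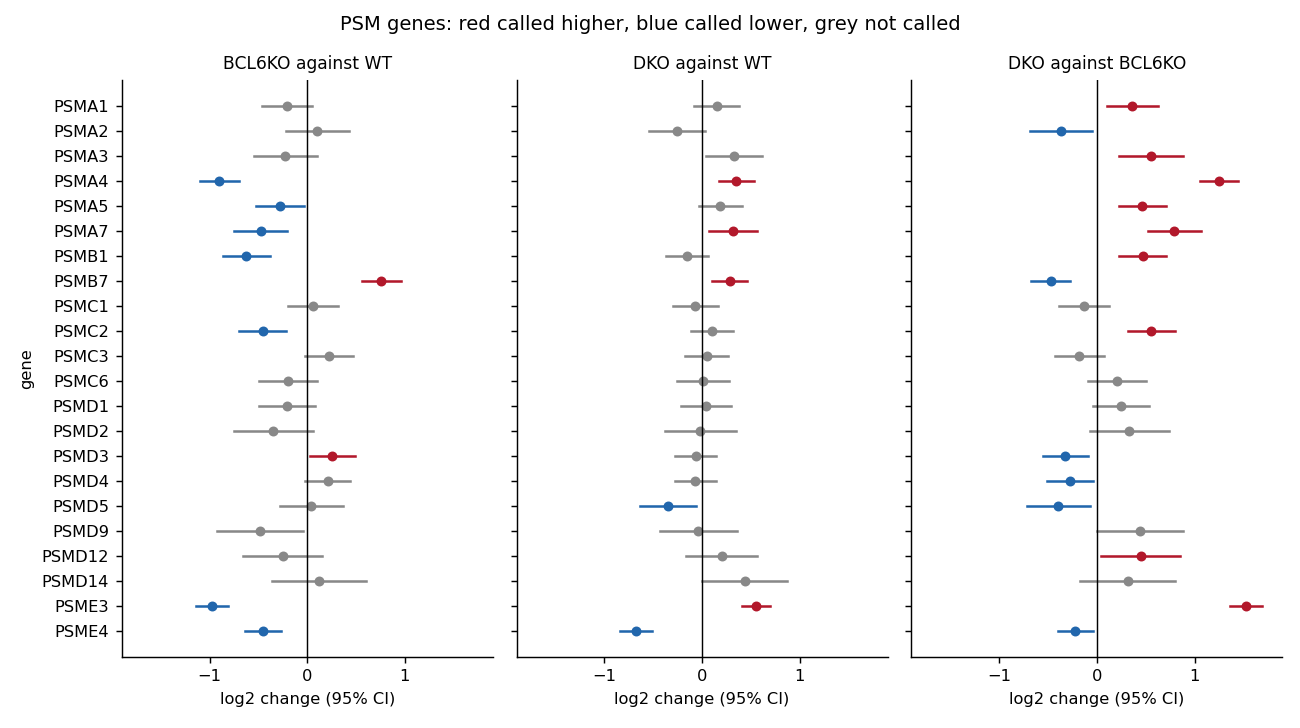
Log2 change of the 22 PSM genes in each comparison, with 95% confidence intervals of the limma model. Red genes were called higher, blue genes lower and grey genes were not called. PSME3 and PSMA4 lie farthest right in DKO against BCL6KO, at 1.53 and 1.25, and farthest left in BCL6KO against WT, at -0.98 and -0.90.

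E1 enzymes start each relay. UBA2, a subunit of the enzyme that activates SUMO, read 1.21, 1.23 and 1.15 in DKO, 1.31 and 1.19 in BCL6KO and 1.18, 1.08 and 1.15 in WT. The DKO arrays overlapped those of both other groups. By chosen probe, UBA2 was called in no comparison. Its change was 0.11 in BCL6KO against WT, with an interval from -0.06 to 0.28. In DKO against WT it was 0.06, with an interval from -0.09 to 0.21. Of its 4 probes, 1 was called higher in BCL6KO against WT and 1 lower in each other comparison.

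E2 enzymes carry the activated ubiquitin. Of the 16, 4 were higher and 9 lower in BCL6KO than in WT (81.2% called, background 69.7%), or 1 higher and 12 lower on the median scale. Their median log2 change was -0.44, against 0.25 over all genes and 0.06 among genes with a symbol. This median of the 16 stayed below 0 under each scaling (-0.75 to -0.38). In DKO against BCL6KO 9 were higher and 2 lower (68.8%, background 68.5%). DKO against WT gave 4 higher and 3 lower (43.8%, background 52.3%), but 1 higher and 6 lower after scaling by the median.

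UBE2J1 sits in the membrane of the endoplasmic reticulum and serves the degradation of misfolded proteins there. Its levels were -2.15, -2.07 and -2.12 in DKO, -0.03 and 0.19 in BCL6KO and -0.86, -0.73 and -0.67 in WT. The DKO arrays were lowest, the BCL6KO arrays highest and WT lay between, with no overlap. UBE2J1 was 2.57-fold lower in DKO than in WT (adjusted p = 1.90e-05), 1.78-fold higher in BCL6KO than in WT (adjusted p = 0.000271) and 4.56-fold lower in DKO than in BCL6KO (adjusted p = 3.28e-06). Its relative UBE2J2 was also higher in BCL6KO than in WT (0.58, adjusted p = 0.00311), a change of 0.28 and not called on the median scale. In DKO against WT the change of UBE2J2 was 0.04 by chosen probe, with an interval from -0.20 to 0.28, though 1 of 2 probes was called higher.

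The E2 genes that were lowest in BCL6KO relative to WT included several broad ubiquitin donors. UBE2G1, which in human cells builds chains on substrates of cullin ligases, read 3.14, 3.14 and 3.20 in DKO, 1.84 and 2.17 in BCL6KO and 3.41, 3.39 and 3.35 in WT. Only the BCL6KO arrays were far from the rest. In BCL6KO against WT its log2 change was -1.38 (adjusted p = 3.57e-05), but its 3 other probes gave -1.36, -0.48 and -0.22, the last not called. UBE2E3 (-1.32), UBE2D3 (-1.17) and UBE2D1 (-0.81) were lower too, the UBE2D enzymes working with many ligases. By chosen probe these 3 were not called in DKO against WT, at 0.06, 0.13 and 0.07. Of the 4 probes of UBE2D3, however, 2 were called lower there, and its changes ran from -0.26 to 0.13.

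UBE2N pairs with UBE2V1 or UBE2V2 to build the chains used in signalling and DNA repair, a pathway studied in DT40. UBE2N read 3.96, 3.93 and 3.88 in DKO, 2.37 and 2.72 in BCL6KO and 3.58, 3.61 and 3.61 in WT, with BCL6KO lowest, DKO highest and no overlap. It was 2.08-fold lower in BCL6KO cells than in WT (adjusted p = 0.000145) and 1.38 higher in DKO than in BCL6KO, in log2 units. The 4 probes of UBE2N ran from -1.05 to -0.26 in BCL6KO against WT, where 2 were called. They ran from 0.49 to 1.38 in DKO against BCL6KO, where 3 were called, so the chosen probe gave the largest change. In DKO against WT it was 0.32 higher (adjusted p = 0.0266), a call lost in 10 of 21 alternatives, with adjusted p from 0.000727 to 1. UBE2V1 was 0.77 lower and UBE2V2 0.34 lower in BCL6KO than in WT, and UBE2V2 was 0.26 lower in DKO than in WT. Of the 4 probes of UBE2V2, 2 were called lower in BCL6KO against WT and 1 in DKO against WT.

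UBE2W, which attaches ubiquitin to the amino end of proteins, was lower than in WT by 0.80 in DKO and by 0.65 in BCL6KO. UBE2K was higher than in WT by 0.42 in DKO and by 0.41 in BCL6KO. The change in BCL6KO against WT was 0.11 and not called on the median scale, and the call was also lost with array weights. Its change in DKO against BCL6KO was 0.01, with an interval from -0.17 to 0.18. UBE2F, the carrier of the ubiquitin-like NEDD8, was 0.23 higher in DKO than in WT (adjusted p = 0.0398) and not called in BCL6KO against WT (-0.19). Of its 2 probes, 1 was called higher in DKO against WT, and the smaller change was 0.12. UBE2L3, a carrier for several ligases, was 0.28 higher in DKO than in WT (adjusted p = 0.00748), where both its probes were called. By chosen probe it was 0.44 higher in DKO than in BCL6KO and not called in BCL6KO against WT (-0.16). Its other probe gave -0.06, not called, and 0.38, called higher, so no direction is given for these comparisons. In DKO against WT on the median scale, UBE2K alone among the E2 genes was called higher, so the calls of UBE2F and UBE2L3 were lost. UBE2A, which acts on PCNA after DNA damage, was 0.38 higher in BCL6KO than in WT, and UBE2H was 0.55 lower there. By chosen probe neither was called in DKO against WT, at 0.15 for UBE2A and -0.19 for UBE2H, though 1 of 2 probes of UBE2H was called lower there. A single probe stands for UBE2A. On the median scale UBE2J1 alone among the E2 genes was called higher in BCL6KO than in WT, so the UBE2A call was lost. UBE2R2 was called in no comparison, and its change was at most 0.24 in size.

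Deubiquitinases held 2 of the largest changes and many small ones. Of the 15 USP genes, 6 were called in each comparison (40%, beside backgrounds of 69.7% in BCL6KO against WT, 52.3% in DKO against WT and 68.5% in DKO against BCL6KO), with 5 higher and 1 lower in DKO against WT and 3 in each direction in the others. On the median scale the split was 2 higher and 9 lower in BCL6KO against WT, 4 higher and 5 lower in DKO against WT, and 6 higher and 2 lower in DKO against BCL6KO. By chosen probe, USP10, USP16, USP34, USP4, USP47 and USP48 were called in no comparison. Further probes of USP10, USP34, USP47 and USP48 were called in at least 1.

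USP2, whose mammalian forms follow the daily clock and act on cyclin D1, read -0.52, -0.70 and -0.61 in DKO, 2.74 and 3.13 in BCL6KO and -2.48, -2.54 and -2.47 in WT. The groups were wide apart, with BCL6KO highest and WT lowest. USP2 was 43.2-fold higher in BCL6KO cells than in WT (5.43 ± 0.12 SE in log2 units, adjusted p = 1.85e-07), 3.71-fold higher in DKO than in WT (adjusted p = 1.32e-05) and 11.6-fold lower in DKO than in BCL6KO. A second probe gave 5.90 for BCL6KO against WT, where it was well above background on 1 of 3 WT arrays.

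USP3 removes ubiquitin from histones in human cells. Its levels were 1.21, 1.29 and 1.18 in DKO, -2.06 and -2.12 in BCL6KO and 0.69, 0.67 and 0.61 in WT. BCL6KO was far below both other groups and DKO was above WT on every array. USP3 was 1.49-fold higher in DKO than in WT (adjusted p = 0.000253), 6.70-fold lower in BCL6KO than in WT (adjusted p = 2.65e-07) and 9.96-fold higher in DKO than in BCL6KO. A single probe stands for it.

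USP28, known in human cells for stabilizing MYC, read 1.99, 2.04 and 2.08 in DKO, 2.65 and 3.22 in BCL6KO and 2.84, 2.81 and 2.86 in WT, so the BCL6KO arrays lay on either side of WT and the DKO arrays below both. It was 1.74-fold lower in DKO than in WT (adjusted p = 0.00275) and 1.87-fold lower in DKO than in BCL6KO (adjusted p = 0.00203). USP1, which acts on PCNA and FANCD2 in the repair of DNA crosslinks, was 0.60 lower in BCL6KO than in WT (adjusted p = 0.000254) and 0.72 higher in DKO than in BCL6KO, and was not called in DKO against WT (0.12). By chosen probe USP6 was 0.48 lower in BCL6KO than in WT, but only 1 of its 3 probes was called there, with changes from -0.48 to -0.05. In DKO against BCL6KO its chosen probe was called higher (0.36) and another lower (-0.24), so no direction is given there. USP33 was higher in both lines than in WT, by 0.47 in DKO and 0.42 in BCL6KO, and USP15 was 0.24 higher in DKO than in WT (adjusted p = 0.0108). A single probe stands for USP33, and 1 of 2 probes of USP15 was called in DKO against WT. On the median scale USP2 and USP6NL were the only USP genes called higher in BCL6KO than in WT, so the USP33 call was lost. In DKO against WT 4 USP genes were called higher on that scale, with USP2, USP3 and USP6NL among them. USP33 and USP15 thus did not both keep their calls there.

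USP6NL met the rule by its letters, and its human product acts on the GTPase RAB5. It read -0.92, -0.94 and -1.07 in DKO, -0.56 and -1.63 in BCL6KO and -2.36, -2.41 and -2.34 in WT. Every array of both lines was above every WT array, and the DKO arrays lay between the BCL6KO pair. It was 2.63-fold higher in DKO than in WT (adjusted p = 0.00307) and 2.42-fold higher in BCL6KO than in WT (adjusted p = 0.00578), and without the first BCL6KO array the log2 change in BCL6KO was 0.74 in place of 1.27.

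F-box proteins bring substrates to ligases built on cullins and SKP1. Of the 11, 3 were higher and 6 lower in BCL6KO than in WT, 2 higher and 1 lower in DKO than in WT, and 6 higher and 3 lower in DKO than in BCL6KO. These were 81.8%, 27.3% and 81.8% called, beside backgrounds of 69.7%, 52.3% and 68.5%. After scaling by the median DKO against WT gave 2 higher and 4 lower. FBXL18 read -3.58, -3.62 and -3.62 in DKO, -2.97 and -2.75 in BCL6KO and -4.00, -3.94 and -3.93 in WT, with no overlap. FBXL18 was 2.14-fold higher in BCL6KO cells than in WT (adjusted p = 3.59e-05). Its 0.35 higher level in DKO (adjusted p = 0.00686) was 0.19 after quantile normalization and 0.11 after normexp, neither called.

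FBXO8 (0.93) and FBXO42 (0.88) were higher in BCL6KO than in WT, and lower in DKO than in BCL6KO, by 1.13 and 0.89. Of the 3 probes of FBXO42, 2 were called in each of these comparisons, and its smallest changes were 0.08 and -0.13. FBXO34 read 0.58, 0.69 and 0.65 in DKO, 0.42 and -0.49 in BCL6KO and 1.19, 1.09 and 1.15 in WT. It was 1.17 lower in BCL6KO than in WT (adjusted p = 0.00423), and 0.72 lower without the second BCL6KO array. FBXW2 (-0.99), FBXO9 (-0.82), FBXO22 (-0.65), FBXW11 (-0.41) and FBXO7 (-0.28) were lower as well. The other probes of FBXO7 gave 0.21 and 0.05 in BCL6KO against WT, neither called, and its call was lost with the mean of all probes and with array weights. FBXW11 is a paralogue of the NF-kB and beta-catenin ligase subunit BTRC. FBXO7, which also binds the proteasome, was higher in DKO than in WT (0.48, adjusted p = 0.000618) and than in BCL6KO (0.76). FBXO9 was lower in DKO than in WT, by 0.60 (adjusted p = 0.000793). FBXO18 was called in no comparison. FBXW5 was called only in DKO against BCL6KO (0.77), and its BCL6KO arrays differed by 0.59. In DKO against WT FBXO18 changed by -0.28 and FBXW5 by 0.35, each without overlap between the groups. Their lack of a call there was kept in 16 and 14 of 21 alternatives, in that order.

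KLHL proteins are the substrate adaptors of ligases built on CUL3, and in each comparison the largest change among the 76 genes was that of a KLHL gene. That ranking rests on the dimmer group of each comparison being not well above background for the gene. In DKO against WT the gene was KLHL4 (4.04), whose change was 1.25 with normexp, while USP2 (1.89) stayed at 1.49 or above in all alternatives. Of the 9 KLHL genes, 3 were higher and 4 lower in BCL6KO than in WT, 1 higher and 4 lower in DKO than in WT, and 3 higher and 4 lower in DKO than in BCL6KO. These were 77.8%, 55.6% and 77.8% called, beside backgrounds of 69.7%, 52.3% and 68.5%.

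KLHL6 is a germinal centre B cell gene that mice need for normal germinal centres. It read 2.66, 2.70 and 2.76 in DKO, 1.08 and 1.25 in BCL6KO and 4.23, 4.22 and 4.25 in WT. The groups formed 3 separate steps, with WT highest. KLHL6 was 2.87-fold lower in DKO than in WT (adjusted p = 3.43e-06), 8.37-fold lower in BCL6KO than in WT (adjusted p = 2.41e-07) and 2.91-fold higher in DKO than in BCL6KO (adjusted p = 5.18e-06). Its 2 other probes gave -3.11 and -3.48 in BCL6KO against WT.

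KLHL14 is known in mice for its part in B cell subsets. Its levels were 1.74, 1.67 and 1.54 in DKO, -2.39 and -3.32 in BCL6KO and 1.73, 1.69 and 1.71 in WT. DKO and WT overlapped, and BCL6KO was far below both. KLHL14 was 23.7-fold lower in BCL6KO cells than in WT (-4.56 ± 0.25 SE in log2 units, adjusted p = 7.51e-06) and 22.7-fold higher in DKO than in BCL6KO. The change in DKO against WT was -0.06, with a 95% interval from -0.58 to 0.47. Of the 3 probes of KLHL14, 1 was called lower there, and the lowest change was -0.24.

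KLHL31, described in chick as a gene of developing skeletal muscle, went the other way. It read -7.11, -7.54 and -7.42 in DKO, 0.28 and 1.20 in BCL6KO and -6.50, -8.84 and -8.04 in WT, and was well above background on the BCL6KO arrays alone. KLHL31 was at least 147-fold higher in BCL6KO than in WT and at least 147-fold lower in DKO than in BCL6KO. It was kept for testing only through the BCL6KO arrays, where it was high, so its calls in these comparisons are not read as support. The bounds set the brighter group against the dimmest signal still well above background on each array, or the probe's own where higher, and hold for the processed signal. With normexp the log2 change in BCL6KO against WT was 5.16 in place of 8.53, which is below that bound.

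KLHL4 was well above background on all 3 DKO arrays, 1 BCL6KO array and 0 WT arrays. It read -4.46, -4.64 and -4.65 in DKO, -7.21 and -7.41 in BCL6KO and -8.88, -8.92 and -8.06 in WT, so DKO was highest. It was at least 3.95-fold higher in DKO than in WT, and the log2 change was 1.25 with normexp. It was kept for testing through the DKO arrays, where it was highest, so its calls in comparisons with DKO are not read as support. KLHL4 was also called in DKO against BCL6KO and in BCL6KO against WT (adjusted p = 0.0039), the last call being lost with array weights (adjusted p = 0.145). Both BCL6KO levels lay below the dimmest signal well above background on every WT array (-6.85 to -6.04). No bound on the fold, and no direction, is therefore given for BCL6KO against WT.

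KLHL18 read 0.79, 0.84 and 0.90 in DKO, 1.20 and 1.56 in BCL6KO and 2.27, 2.30 and 2.30 in WT, without overlap and with WT highest. It was 2.73-fold lower in DKO than in WT (adjusted p = 2.89e-05) and 1.88-fold lower in BCL6KO than in WT (adjusted p = 0.000357). KLHL7 was lower in both lines than in WT, by 0.80 in DKO and 0.78 in BCL6KO. KLHL9, an adaptor that acts in cell division in human cells, was 0.70 lower in DKO than in WT (adjusted p = 0.000203) and 0.74 lower in DKO than in BCL6KO, and was not called in BCL6KO against WT (0.04). KLHL20 was 0.84 higher in BCL6KO than in WT and not called in DKO against WT (0.01).

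**Figure D4:**
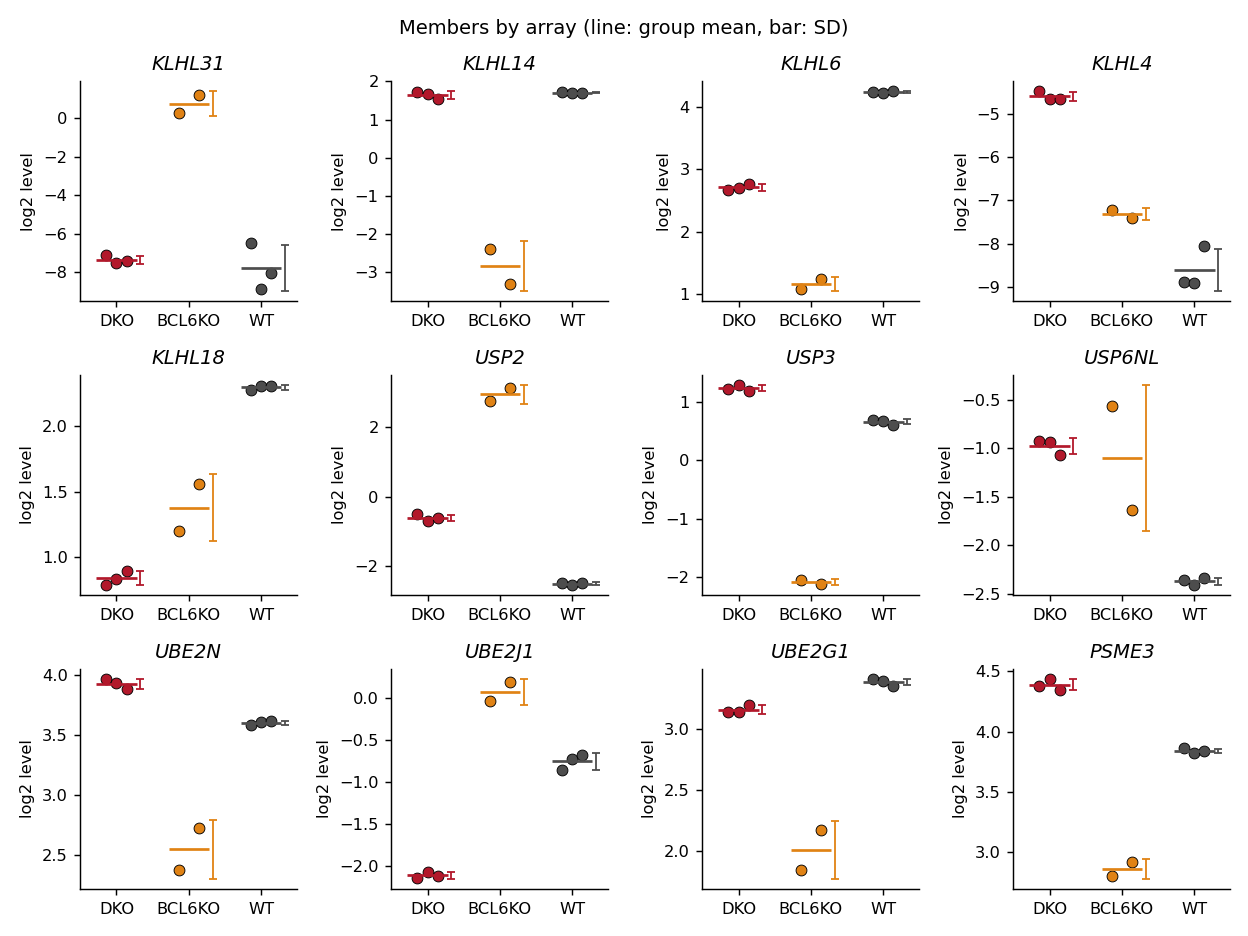
Log2 levels of 12 genes, each in a panel with its own axis, on the DKO, BCL6KO and WT arrays. Points are arrays, horizontal lines group means and bars the SD. BCL6KO alone stands apart for KLHL31 and KLHL14, and the 3 groups form separate steps for KLHL6, USP2, UBE2J1, UBE2N and PSME3.

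More than 1 probe was measured for 59 of the 76 genes. All probes of a gene had the same sign of change in 48 genes in BCL6KO against WT, in 49 in DKO against WT and in 45 in DKO against BCL6KO. Probes were called in opposite directions in only 2 cases, PSMD3 in BCL6KO against WT and USP6 in DKO against BCL6KO, both given above.

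**Figure D5:**
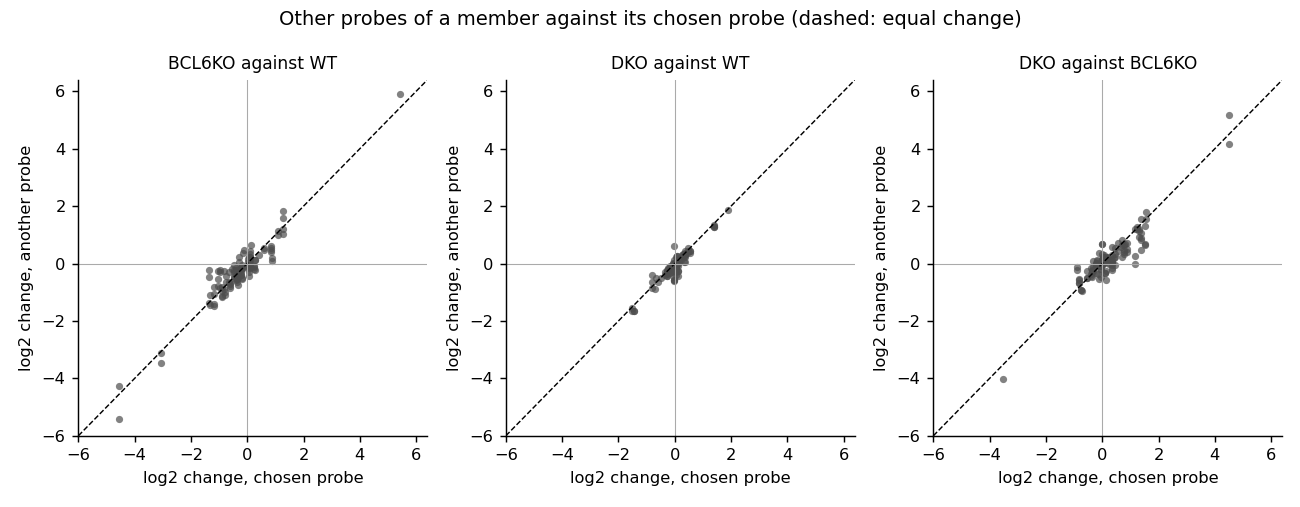
Each point is a further probe of a gene, its log2 change plotted against that of the probe that stands for the gene, and the dashed line marks equal change. In BCL6KO against WT the further probes of KLHL14 lie at -5.41 and -4.28, against -4.56 for the chosen probe, and that of USP2 at 5.90, against 5.43.

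A wider list of 166 other genes of the ubiquitin pathway had 67 on the array with a symbol, none of them among the 76. Of these, 19 were higher and 27 lower in BCL6KO than in WT, 19 higher and 17 lower in DKO than in WT, and 27 higher and 16 lower in DKO than in BCL6KO, which is 68.7%, 53.7% and 64.2% called, beside backgrounds of 69.7%, 52.3% and 68.5%. SEL1L, a scaffold of the degradation machinery of the endoplasmic reticulum, was 7.46-fold higher in BCL6KO cells than in WT (adjusted p = 3.09e-05) and 2.76-fold higher in DKO than in WT (adjusted p = 0.000651). The ligase WWP1 was 3.67-fold higher in BCL6KO cells than in WT and lower in DKO than in BCL6KO (-1.63). DCUN1D1, which promotes the attachment of NEDD8 to cullins, was 2.08-fold lower in DKO than in WT and 5.51-fold lower in BCL6KO than in WT (adjusted p = 4.72e-06). BRCA1, a ligase of DNA repair, was 2.05-fold lower in BCL6KO cells than in WT. UCHL1, a deubiquitinase, was at least 2.15-fold higher in DKO than in WT, where it was not well above background. CBL, a ligase that acts on receptors, was not well above background in DKO and at least 2.34-fold lower there than in WT. COPS2, a subunit of the complex that takes NEDD8 off cullins, was 2.05-fold higher in DKO than in BCL6KO.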

How the data were processed

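Each of 8 one-colour arrays gave a scanner file. Per the file headers, the processed signal is a linear intensity from which Agilent Feature Extraction (10.7.1.1 for DKO and WT, 10.7.3.1 for BCL6KO) had taken background and a spatial trend. Per the labels' protocols the dye was Cy3, while the labels give biotin. Per the submitters' processing notes, limma and R 2.12.0 were used, in steps not given in the sources used here. The authors' value table, intensity on a linear scale, was not used: only 2 of its 8 columns matched the array of the same label best, and its WT and DKO labels go against those of the scanner files.

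Levels are log2 of the deposited processed signal minus the 75th percentile of each array. Probes well above background on at least 2 arrays were kept, and a gene was read by its probe with the highest mean. Symbols came from matching accessions to RefSeq, and 10857 of 43603 probes had one. A limma model (3.58.1, R 4.3.3) over all 8 arrays gave 3 two-sided comparisons, adjusted by Benjamini-Hochberg over 24137 genes and called under 0.05. The number of arrays limits the precision.

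Named genes were all PSM genes, and per family and comparison up to 2 called higher and 2 called lower with the largest change and no overlap, the 10 largest such changes over all families, genes with opposite probes and, per family, the gene with the highest level and the uncalled gene with the smallest change. Other genes were named after their values were seen. The genes and lists were chosen with earlier results of these data known. The scripts were tested on simulated data. Alternatives were other scalings, background corrections, filters, probe rules, weights, blocks and arrays left out. Some genes are not reported here singly. No sequence is shown.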

Additional observations from a re-analysis of the deposited data

How the results depend on the processing

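Each count of called genes and each gene named by the rule was recomputed under scalings, background corrections, probe filters, probe choice, weights, blocks and arrays left out. Over these, 3331 recomputed gene results kept their side of the threshold, and their direction where called. A further 243 lost a call, 188 gained one, and 20 turned round with a call in the main fit or the alternative. Uncalled results could change sign and still count as kept, as PSMD5 did in BCL6KO against WT (-0.26 to 0.25). With a minimum fold of 1.5 the counts were 16 (BCL6KO against WT), 7 (DKO against WT) and 17 (DKO against BCL6KO), a stricter test by construction. DKO against WT gave 48 calls with array weights per group, where 15558 of all genes were called. It also gave 48 with only DKO and WT in the fit, where 15298 of all genes were called. Leaving out single DKO or WT arrays gave 44 calls in BCL6KO against WT, 21 to 23 in DKO against WT and 41 to 43 in DKO against BCL6KO. Over all genes these fits called 15349 to 16367, 10792 to 11126 and 15094 to 15902, in that order.

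Replicate numbers did not pair the samples: over 7 pairs of same-numbered arrays the correlation of deviations was -0.06 to 0.04, none over 0.1. The replicate block gave 44, 23 and 40 calls in BCL6KO against WT, DKO against WT and DKO against BCL6KO, with 15351, 11328 and 14907 over all genes. The value table was not run as an alternative because its DKO and WT columns do not follow the arrays of those labels.

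In BCL6KO against WT, KLHL9 was -0.26, PSMD3 -0.046 and USP10 -0.26 with the median scale. PSMC1 was -0.22 and PSMD3 -0.10 with quantile normalization, and -0.23 and -0.12 with normexp, with or without 18 background values repaired. PSMC2 was -0.16 in DKO against WT with normexp. With the mean of all probes, PSMD1 was -0.22 in DKO against WT and KLHL7 was 0.28 in DKO against BCL6KO. Leaving out single BCL6KO arrays turned further changes round, with the value without the first array given before that without the second. In BCL6KO against WT, KLHL15 was -0.62 and 0.81, PSMD14 0.50 and -0.26, and USP28 0.38 and -0.18. In DKO against BCL6KO, KLHL15 was 0.61 and -0.83, USP47 -0.17 and 0.17, FBXO18 -0.35 and 0.22, UBE2R2 -0.25 and 0.25, and USP6NL 0.66 and -0.41. Beyond the left-out arrays, the cause of these turns was not tested.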

Other observations

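The BCL6KO arrays differed from each other by more than 0.5 log2 units in 14 of the 76 genes, against 0 genes with such a range among the DKO arrays and 2 among the WT arrays. The first BCL6KO array was the lower of the pair in 58 genes. KLHL15 was farthest apart: it read 1.66 and 0.22 in BCL6KO, against 0.81 to 0.90 in WT, so that the BCL6KO arrays lay on either side of all others. USP6NL was 1.07 higher and KLHL14 0.93 higher on the first BCL6KO array, while PSMD14 was 0.76 lower and PSMD12 0.63 lower there. Values for these genes in BCL6KO rest on arrays that disagree.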
